A study of Arabidopsis thaliana with 6 samples.

Results

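The genes described here make, break down and carry proline in Arabidopsis thaliana. They were chosen as every array probe annotated to 1 of 10 listed loci, by locus code. Of these loci 9 had a probe, 16 probes in all, among 24457 genes tested and 43603 probes on the arrays. The 9 were P5CS1 (AT2G39800), P5CS2 (AT3G55610), P5CR (AT5G14800), the ornithine aminotransferase gene OAT (AT5G46180), ProDH1 (AT3G30775), ProDH2 (AT5G38710), P5CDH (AT5G62530), ProT1 (AT2G39890) and ProT3 (AT2G36590). No probe carried the locus code of ProT2 (AT3G55740), and it was not analysed here. The samples were whole fertilised flowers at stage 15 of atnaod plants, a T-DNA line of AtNAOD (AT4G17830), and of wild-type plants, with 3 independent samples of each genotype and 1 single-colour array per sample. Each sample pooled about 100 flowers of 17 to 20 soil-grown plants grown at 25 °C with 16 h light and 8 h dark. AtNAOD codes for N-acetylornithine deacetylase, which releases ornithine from its acetylated form, and the comparison asked how transcripts around proline differed when that step was disrupted. The labels name 1 mutant line and no complemented line.

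Proline is made in plants mainly from glutamate. Delta-1-pyrroline-5-carboxylate synthase (P5CS) turns glutamate into a semialdehyde that closes into pyrroline-5-carboxylate (P5C), and P5C reductase (P5CR) turns P5C into proline. Ornithine aminotransferase in the mitochondrion forms the same semialdehyde from ornithine, which links proline and arginine metabolism. Proline dehydrogenase (ProDH) and P5C dehydrogenase (P5CDH) oxidise proline back to glutamate in the mitochondrion, and ProT proteins of the plasma membrane carry proline and other compatible solutes. In flowers proline is known to be abundant in pollen, and it is a building block of cell wall proteins.

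All levels are log2 of the background-subtracted probe intensity minus the 75th percentile of the array, so a level of 0 is that percentile. Changes are atnaod minus wild type on the same log2 scale. Levels of different probes are not compared, since probes differ in how brightly they bind. The 75th percentiles of intensity were 1355 to 2845 in atnaod and 1318 to 3007 in wild type, and 75.6% to 79.2% of probes in atnaod and 73.2% to 76.2% in wild type were well above background. Samples 1 and 2 of both genotypes were on 1 slide and sample 3 of both on another. Pearson correlations across genes, which are not independent replicates, were 0.988 to 0.994 within and 0.980 to 0.988 between genotypes. The mutated gene followed the labels: at its main probe AtNAOD stood at -7.26, -7.24 and -6.93 in atnaod, not well above background on any of these 3 arrays, and at 1.77, 1.62 and 1.69 in wild-type flowers. It was at least 369-fold lower by the lowest signal called above background on those arrays (adjusted p = 4.83e-07, limma over all probes). Where that probe lies in relation to the insertion is not given in the files. A second AtNAOD probe, well above background on all 6 arrays, was lower by 1.23 in the mean (adjusted p = 0.0286).

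Of the 9 proline genes 1 was called, P5CS2, which rose in atnaod, and 0 fell. A call means an adjusted p under 0.05 with limma and Benjamini-Hochberg adjustment over all genes tested. By that rule 5.78% of all genes were called, 2.72% higher and 3.06% lower in atnaod, so 1 call in 9 genes does not set the list apart from other genes. The changes ran from -0.15 to 0.40 with a median of 0.00, where the median over all genes was -0.01 and the median size of a change 0.17. At an unadjusted p under 0.05 the list also held 1 gene, and all genes 25.8%. In 3 of the 9 genes the genotypes did not overlap, against 32.3% of all genes, with 2 higher (15.3% of all genes) and 1 lower (17% of all genes).

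**Figure D1:**
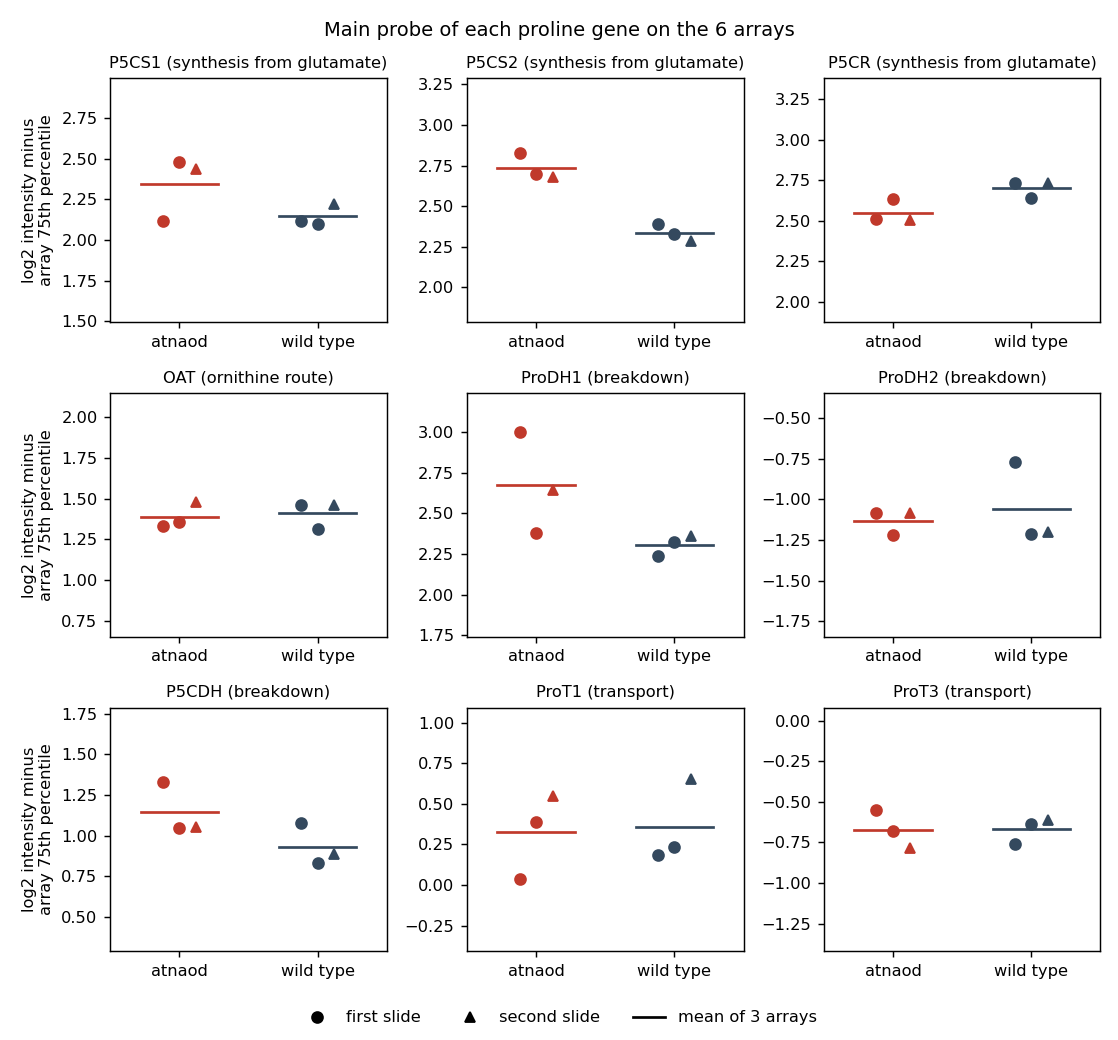
Level of the main probe of each of the 9 proline genes (vertical axis, log2 intensity relative to the 75th percentile of the array) on each array, with atnaod on the left and wild type on the right of every panel. Circles mark the first slide, triangles the second, lines the mean of 3 arrays, and every panel spans the same range of log2 units. The 2 genotypes are apart in P5CS2 and, narrowly, in P5CR and ProDH1, and overlap in the other 6 genes.

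The rise of P5CS2, the copy of the glutamate-to-P5C enzyme that Arabidopsis needs for embryo development, was modest in size. Its main probe read 2.83, 2.70 and 2.68 in atnaod, against 2.39, 2.33 and 2.29 in wild type. Every atnaod level was above every wild-type level, by more than the spread within either genotype (SD 0.08 and 0.05, n = 3 each). The change was 0.40 (SE 0.0869, 95% interval 0.19 to 0.61, adjusted p = 0.0474, limma), a fold of 1.32 (1.14 to 1.52). The slides gave 0.40 (first) and 0.39 (second). A further P5CS2 probe on the same arrays read 0.83, 0.75 and 0.66 in atnaod, against 0.40, 0.21 and 0.29 in wild type, again without overlap, and its change was 0.45 (95% interval 0.22 to 0.67). Both probes read the same RNA and are not separate evidence on the genotypes.

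The size of the P5CS2 change was stable while its call was not. With samples paired by replicate number it lost its call (adjusted p = 0.0529, limma, in a fit that called 5.3% of all genes). The call was also lost without any 1 sample. Without atnaod 1, 2 and 3 the adjusted p was 0.0883, 0.161 and 0.119, with 5.87%, 0.0569% and 0.558% of all genes called. Without wild type 1, 2 and 3 it was 0.0670, 0.136 and 0.141, with 2.32%, 0.0815% and 0.0812% called. In all these fits but that without atnaod 1, fewer of all genes were called than with 6 samples. With slide as a block P5CS2 was called (adjusted p = 0.0400, with 8.68% of all genes called). The change itself stayed between 0.35 and 0.43 in all 18 alternatives. Another filter on dim probes, another prior or a block for replicate or slide cannot move it. Those alternatives bear on its call and not on its size. When the fit ran over all 32496 probes tested, of which 3.84% were called (1.85% higher and 1.99% lower in atnaod), neither P5CS2 probe passed (adjusted p = 0.0568 for the main and 0.0544 for the further probe), and 0 of the 16 proline probes did. At an unadjusted p under 0.05 there were 2 proline probes, both of P5CS2, against 23.9% of all probes. In 4 of the 16 the genotypes did not overlap, 3 higher and 1 lower in atnaod, against 30.6% of all probes (14.8% higher and 15.7% lower).

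**Figure D2:**
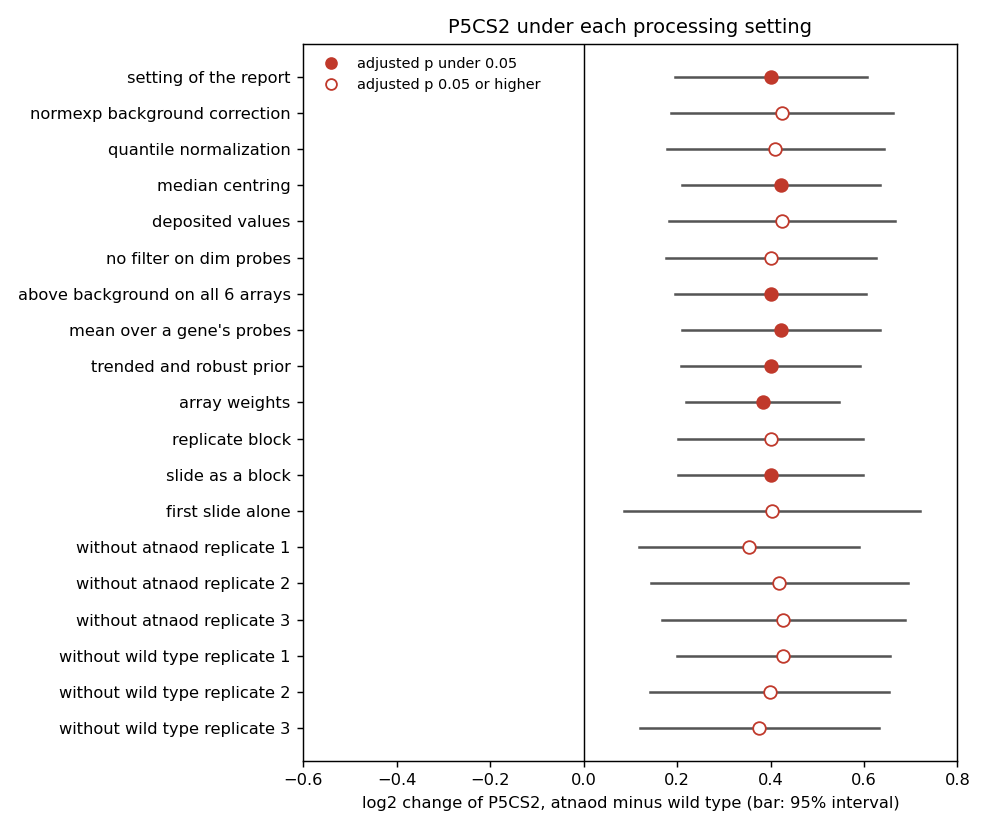
Log2 change of P5CS2, atnaod minus wild type (horizontal axis), in the report's setting and 18 alternatives, with 95% intervals as bars. Filled points have an adjusted p under 0.05. The point stays between 0.35 and 0.43 and every interval lies above 0, while 12 of the 18 alternatives, among them all 6 that leave out a sample, are not called. The filters on dim probes, the prior and the blocks cannot move the point.

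P5CS1, the copy known for its induction by drought and salt, read 2.11, 2.48 and 2.44 in atnaod, against 2.12, 2.10 and 2.22 in wild type. Here atnaod 2 and 3 lay above all wild-type samples and atnaod 1 among them. The change was 0.20 (95% interval -0.08 to 0.48, adjusted p = 0.345, limma), and 0.31 without atnaod 1 (adjusted p = 0.122). A dim P5CS1 probe annotated to the second transcript read -5.67, -4.30 and -3.64 in atnaod, against -4.94, -4.73 and -4.09 in wild type. Its spot signal was only 2.31 to 5.60 times the local background, and its change of 0.05 had an interval of -1.11 to 1.22, so that it could not show a difference of the size seen at the main probe. Whether the copies differed in their change was tested on the level of P5CS2 minus that of P5CS1 in each sample. That difference came to 0.71, 0.22 and 0.24 in atnaod, against 0.27, 0.23 and 0.07 in wild type, and the genotypes overlapped (exact two-sided permutation test, p = 0.5, adjusted over 3 pairs of copies 0.75). In 3 against 3 samples that test cannot go below 0.1. The call of P5CS2 without one of P5CS1 is thus no sign that the copies differ.

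P5CR, which makes proline from P5C, leaned the other way. It read 2.51, 2.64 and 2.503 in atnaod, against 2.73, 2.64 and 2.73 in wild type, with the highest atnaod and the lowest wild-type sample nearly level. The change was -0.15 (95% interval -0.36 to 0.05, adjusted p = 0.318, limma), with -0.11 and -0.23 on the first and second slide. The reductase is coded by a single gene in Arabidopsis.

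OAT, the enzyme that takes up the ornithine side, did not differ beyond its spread. It read 1.33, 1.36 and 1.48 in atnaod, against 1.46, 1.31 and 1.46 in wild type. The change was -0.02 (95% interval -0.24 to 0.19, adjusted p = 0.900, limma), an interval that covers folds of 0.847 to 1.14. At this precision a larger change of the OAT transcript lies outside the interval, while a smaller one is not detectable.

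Of the breakdown genes 0 of 3 were called. ProDH1, the main proline dehydrogenase and a gene known to be induced by proline and by low sugar, read 3.0001, 2.38 and 2.64 in atnaod, against 2.24, 2.32 and 2.36 in wild type. The atnaod samples were all higher, atnaod 2 by a narrow margin over wild type 3. The change of 0.36 was nearly as large as that of P5CS2, but the atnaod samples were more spread (SD 0.31, against 0.06 in wild type, n = 3 each) and it was not called (95% interval -0.01 to 0.74, adjusted p = 0.204, limma). Without atnaod 1 it was 0.20 (adjusted p = 0.359), and without atnaod 2 it was 0.51 (adjusted p = 0.168). With array weights it was 0.13 (adjusted p = 0.534), where P5CS2 stood at 0.38.

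ProDH1 had 3 further, dimmer probes, with changes of 0.29, 0.22 and 0.06. On the first slide the main probe and these 3 were higher in atnaod by 0.41, 0.42, 0.38 and 0.19. On the second slide their values were 0.28, 0.03, -0.10 and -0.18, so that the probes parted there. The third probe read -1.29, -1.84 and -1.23 in atnaod, against -1.92, -1.96 and -1.12 in wild type. The mean over all 4 probes gave a change of 0.23 (adjusted p = 0.479). What the dimmer probes bind is not given in the files.

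ProDH2, the less expressed dehydrogenase, read -1.09, -1.22 and -1.08 in atnaod, against -0.77, -1.22 and -1.20 in wild type. Its wild type 1 stood above the other 5 samples, which lay close together. The change was -0.07 (95% interval -0.40 to 0.26, adjusted p = 0.795, limma), and 0.08 without wild type 1. ProDH2 minus ProDH1 came to -4.09, -3.60 and -3.73 in atnaod, against -3.004, -3.54 and -3.56 in wild type, lower in 3 of 3 atnaod samples with a mean difference between genotypes of -0.43 (exact two-sided permutation test, p = 0.1, the smallest this design allows, adjusted 0.3). Without wild type 1 it was -0.25.

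P5CDH, which completes the route back to glutamate, read 1.33, 1.04 and 1.05 in atnaod, against 1.08, 0.83 and 0.89 in wild type. The genotypes overlapped through wild type 1. Its change was 0.21 (95% interval -0.07 to 0.49, adjusted p = 0.312, limma), 0.23 and 0.17 on the first and second slide. Paired by replicate number, atnaod was higher in 3 of 3 pairs, with an interval of 0.01 to 0.41 and no call (adjusted p = 0.145, limma). A dim P5CDH probe, 2.35 to 3.76 times its local background, was well above background on 3 of 3 atnaod and 2 of 3 wild-type arrays and changed by 0.02.

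The proline carriers showed no difference between genotypes beyond the spread of the samples. ProT1, known from the phloem and from flowers, read 0.04, 0.39 and 0.55 in atnaod, against 0.19, 0.23 and 0.65 in wild type. Sample 3 was the highest of each genotype, and the change was -0.03 (95% interval -0.45 to 0.39, adjusted p = 0.930, limma). A further ProT1 probe had the same order of samples within each genotype and a change of -0.04. ProT3, known from leaf epidermis, read -0.55, -0.68 and -0.78 in atnaod, against -0.76, -0.64 and -0.61 in wild type, a change of 0.00 (95% interval -0.23 to 0.23). ProT1 minus ProT3 did not separate the genotypes (-0.03, exact permutation p = 1).

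**Figure D3:**
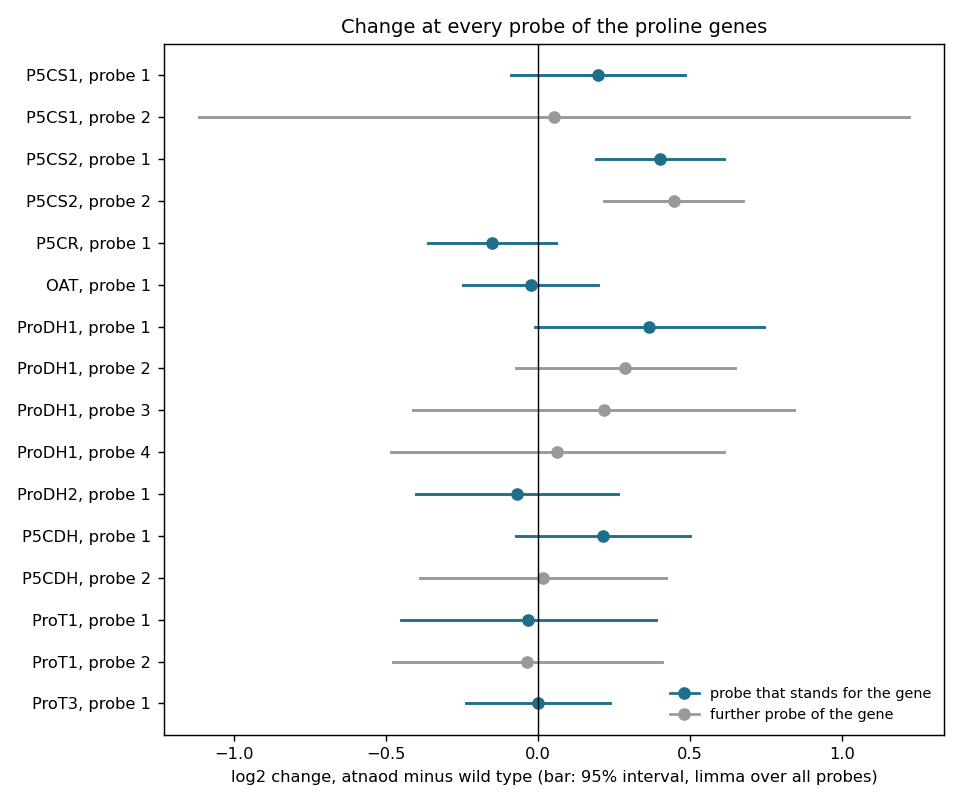
Log2 change, atnaod minus wild type (horizontal axis), at each of the 16 proline probes, with 95% intervals from the fit over all probes. Probe 1 of each gene, in blue, stands for the gene and further probes are grey. Both P5CS2 intervals lie above 0, all others include 0, and the dim second probe of P5CS1 has the widest.

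Within the mutant the samples were not alike, and several proline genes set atnaod 1 apart. For P5CDH and ProT1 sample 1 was also the extreme of wild type, in the same direction. Against the wild-type mean, ProDH1 stood at 0.69, 0.07 and 0.33 in atnaod 1, 2 and 3, and P5CDH at 0.40, 0.11 and 0.12. P5CS1 stood at -0.03, 0.33 and 0.29, and ProT1 at -0.32, 0.03 and 0.19. In atnaod 1 the breakdown genes ProDH1 and P5CDH were thus at their highest, and P5CS1 and ProT1 at the lowest of the 3 atnaod samples. P5CS2 did not follow P5CS1 there: it stood at 0.49, 0.36 and 0.35. Without atnaod 1 the P5CDH change was 0.12 (adjusted p = 0.577). In wild type 1, 2 and 3 P5CDH stood at 0.15, -0.10 and -0.05, and ProT1 at -0.17, -0.12 and 0.30. The pattern of these genes was thus shared by sample 1 of both genotypes. In wild type ProDH1 (-0.07, 0.02 and 0.05) and P5CS1 (-0.03, -0.05 and 0.08) did not show the atnaod order.

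**Figure D4:**
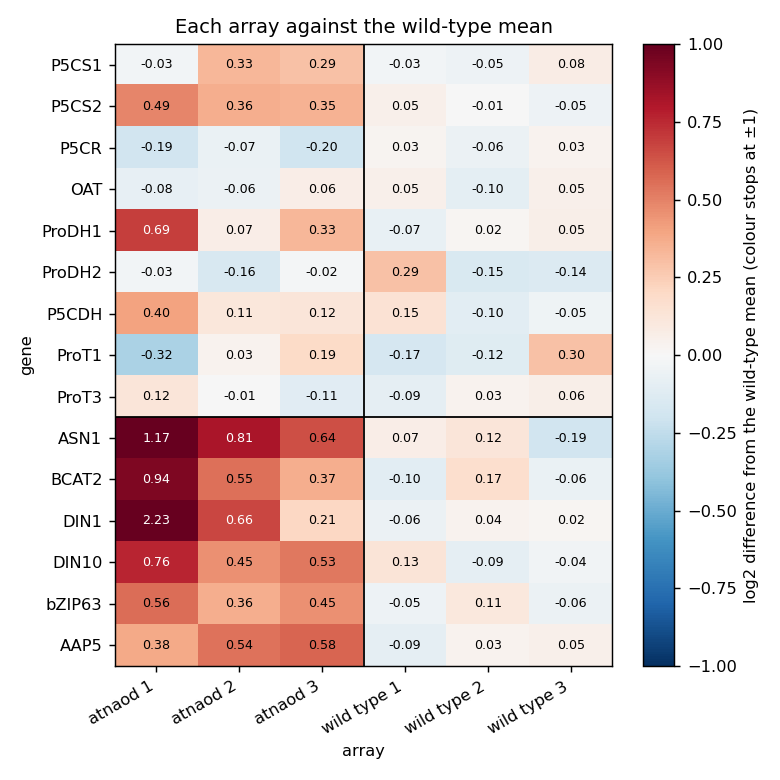
Difference of each array from the wild-type mean (colour and printed value, log2) for the 9 proline genes, above the line, and for 6 genes of low sugar, bZIP regulation and amino acid transport below it. Columns are atnaod 1 to 3 and wild type 1 to 3. ProDH1, P5CDH, ASN1, BCAT2, DIN1, DIN10 and bZIP63 are highest in atnaod 1, where P5CS1 and ProT1 are at their lowest among the atnaod samples. Among the wild-type samples P5CDH and DIN10 are also highest, and ProT1 lowest, in wild type 1.

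Genes that feed, regulate, carry or use proline were followed in 6 lists with 47 genes, all tested. Of these 4 rose and 0 fell, or 8.51% against 5.78% of all genes, and their median change was 0.06. The 4 were ASN1, DIN10, bZIP63 and AAP5. In 14 of the 47 the genotypes did not overlap, 11 higher and 3 lower in atnaod, against 32.3% of all genes (15.3% higher and 17% lower).

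The 4 low-sugar genes were all above every wild-type sample in every atnaod sample, against 15.3% of all genes. Of the 4 genes 2 rose, against 2.72% of all genes. As with every list here, the choice was made with earlier results of these data known, so the counts are descriptions and not independent support. The low-sugar genes are induced in darkness or starvation, and ASN1 is, with ProDH1, a known target of the bZIP factors listed next. ASN1, an asparagine synthetase gene, read 3.13, 2.78 and 2.61 in atnaod, against 2.03, 2.09 and 1.78 in wild type. It rose by 0.87 (SE 0.158, adjusted p = 0.0345, limma), with 0.90 and 0.83 on the first and second slide. DIN10, a raffinose synthase family gene, rose by 0.58 (adjusted p = 0.0386). BCAT2, a branched-chain aminotransferase gene, stood at 0.62 (adjusted p = 0.0705) and DIN1 at 1.03 (adjusted p = 0.221), DIN1 with 1.63, 0.07 and -0.39 in atnaod 1, 2 and 3 and a change of 0.44 without atnaod 1. The list's median was 0.75.

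Of the 9 bZIP genes whose proteins bind the ProDH1 promoter in pairs, 1 rose and 0 fell, with a median of 0.04. Over all genes 2.72% rose and 3.06% fell. bZIP63 read -0.19, -0.38 and -0.29 in atnaod, against -0.80, -0.64 and -0.81 in wild type. It rose by 0.46 (adjusted p = 0.0443, limma), and was not called with samples paired by replicate number (adjusted p = 0.0613). bZIP11 stood at 0.30 without a call (adjusted p = 0.0892), also without overlap. In 2 of the 9 the genotypes did not overlap, against 32.3% of all genes. The other 7 lay between -0.10 and 0.07, with bZIP25 at -0.10 and bZIP44 at -0.06.

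Of 10 broad amino acid transporter genes, whose proteins carry proline among other amino acids, 1 rose and 0 fell. The shares of all genes were 2.72% and 3.06%. AAP5 read 3.08, 3.24 and 3.28 in atnaod, against 2.61, 2.73 and 2.75 in wild type, and rose by 0.50 (adjusted p = 0.0370, limma). AAP4 stood at 0.31 (adjusted p = 0.0724), AAP6 at 0.44 (adjusted p = 0.133) and AAP7 at -0.41 (adjusted p = 0.0550), each with genotypes that did not overlap. In 5 of the 10 the genotypes did not overlap, against 32.3% of all genes. The median of the 10 was 0.27, and 5 had an unadjusted p under 0.05, against 25.8% of all genes. The calls of AAP5 and ASN1 held without atnaod 1 (adjusted p = 0.0348 and 0.0363) and were lost without any other single sample (adjusted p = 0.0678 to 0.150 for AAP5 and 0.0564 to 0.125 for ASN1). Those of DIN10 (adjusted p = 0.0571 to 0.131) and bZIP63 (0.0786 to 0.134) were lost without any 1 of the 6 samples. The fits without 1 sample called 14 to 1466 of all genes, against 1414 with all 6 samples.

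In the other 3 lists 0 genes were called with limma, against 5.78% of all genes. The 7 genes of glutamate and ornithine supply code for arginases, mitochondrial basic amino acid carriers and glutamate dehydrogenases. Their changes ran from -0.12 to 0.12, and 0 had an unadjusted p under 0.05, against 25.8% of all genes. The carrier gene BAC1 stood at -0.12 and GDH1 at -0.10, both without overlap. That made 2 of the 7 genes, against 32.3% of all genes. The arginase gene ARGAH2, which frees ornithine from arginine, stood at 0.11. Among 12 drought and abscisic acid response genes, a class that P5CS1 is known to respond with, the median was 0.08. At an unadjusted p under 0.05 the list held 1 gene, against 25.8% of all genes. That gene was the cold-regulated COR15A at -0.56 (adjusted p = 0.169), with 0.81, 1.66 and 1.45 in wild type 1, 2 and 3 (SD 0.45). COR15A was called without wild type 1 (-0.81, adjusted p = 0.0476) and with array weights (-0.60, adjusted p = 0.0374). Array weights called 22.2% of all genes. RAB18 stood at 0.21, and at 0.02 to 0.44 without 1 sample. Of the 12 genes 0 had genotypes that did not overlap, against 32.3% of all genes. Among 5 genes that use proline in proteins, the prolyl-tRNA synthetases and prolyl 4-hydroxylases, the changes ran from -0.13 to 0.17, led by the hydroxylase gene P4H5 (0.17, adjusted p = 0.300).

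**Figure D5:**
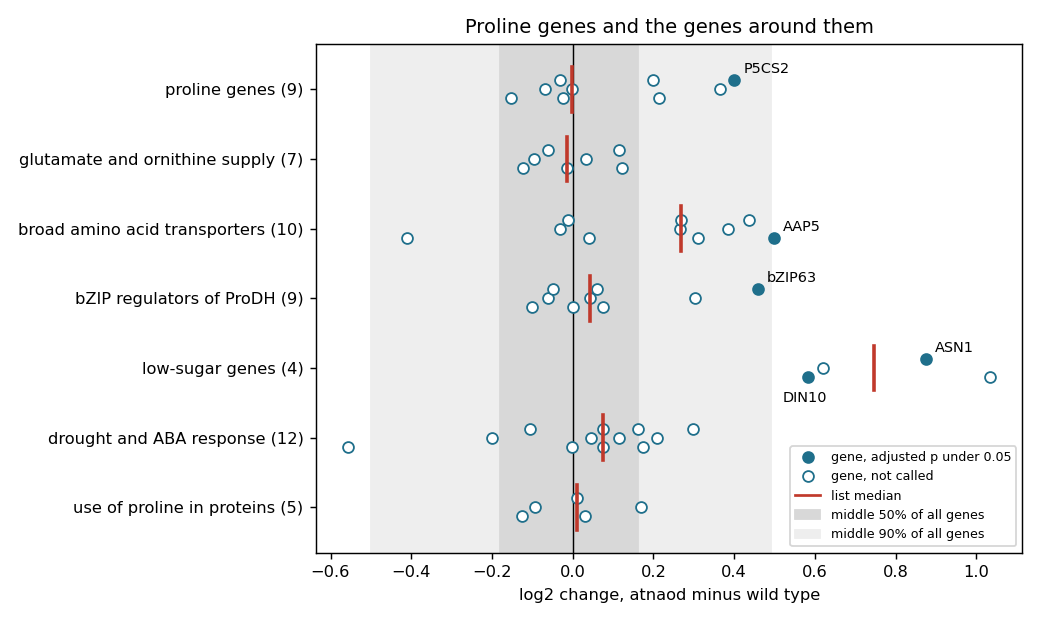
Log2 change, atnaod minus wild type (horizontal axis), of the 9 proline genes and of 6 lists of genes around them, 1 point per gene, with the number of genes in brackets. Filled points have an adjusted p under 0.05, red bars are list medians, and the grey bands hold the middle of all 24457 genes, from percentile 25 to 75 and, lighter, from 5 to 95. Low-sugar genes lie right of the wider band, and the proline genes centre on 0.

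The genes whose levels followed P5CS2 most closely over the 6 arrays, among 9252 tested genes with a symbol, were ALIS1, a subunit of lipid flippases (Pearson r = 0.997, change 0.21), RAP2.6, an ERF family transcription factor (r = 0.994, change 2.08), and AUX1, an auxin influx carrier (r = 0.994, change 0.51). These r values are descriptions over 6 arrays that share 2 genotypes, and 148 of the 9252 genes had an r over 0.95.

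Markers of seed tissues in the flowers also differed between genotypes. In whole flowers fewer cells of a type and less RNA per cell cannot be told apart. Of all genes 3.06% were called lower and 2.72% higher in atnaod, and 25.8% had an unadjusted p under 0.05 (limma). The markers were chosen with earlier results of these data known. The flower markers AP1, AP3, PI, AG, SEP3 and SHP1 were all measured, with a summed level (in multiples of the array's 75th percentile) of 28.03 to 31.3 in atnaod and 25.8 to 35.5 in wild type. Of these 6, 5 lay below 0 and 1 fell, SHP1, a gene of carpel and fruit development (-0.49, adjusted p = 0.0376, limma). All 6 seed coat markers fell, with a summed level of 7.49 to 10.4 in atnaod and 14.7 to 15.8 in wild type. STK (-0.73) and BAN (-1.06) weigh most in their sum. Of the endosperm and embryo markers 1 of 9 tested fell, LEC1, and 7 lay below 0. LEC1 was dim, with means of -5.48 in atnaod and -4.80 in wild type. The sum of the 9 was 0.624 to 0.715 in atnaod and 0.732 to 0.836 in wild type. WOX9, with a change of 0.05, weighs most in that sum. IKU2 and PHE1 were not above background on any array, and WOX8, above background on 4, was not tested. Of the pollen markers 0 of 11 tested passed (limma), and 1 had an unadjusted p under 0.05, VEX1, which was well above background on 1 of 3 wild-type arrays. Of the 11 markers 10 lay above 0, with a median of 0.28. VGD1 and AGC1.5 weigh most in their sum, and AGC1.5 is the marker below 0 (-0.46). The sum was 13.3, 19.0 and 25.0 in atnaod 1, 2 and 3 and 17.4 to 21.4 in wild type, and GEX2 and HAP2 were not above background on any array. Of 4 senescence markers 0 passed (limma), 1 had an unadjusted p under 0.05, and sums were 43.5 to 52.2 in atnaod and 46.1 to 55.3 in wild type. The part of these tissues in the changes of P5CS2, ProDH1 and the low-sugar genes was not tested.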

How the data were processed

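Each of the 6 samples was labelled with Cy3 from 200 ng of RNA, per the labels. The deposited scanner files hold spot intensity from Agilent Feature Extraction 10.5.1.1, per the file headers (10.5 per the submitters' processing notes), with background subtracted and the spatial trend removed within the array. The deposited processed values are also intensity: they equal the spot's median signal scaled by a constant for each array.

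Levels are log2 intensity from which the 75th percentile over probes was subtracted on every array. Spots marked as outliers (2 to 35 per array, none of a proline probe) were left out. Probes well above background on all arrays of 1 genotype were tested (32496), all 16 proline probes among them. A gene was represented by its probe of highest mean. Genes were compared with limma 3.58.1 (R 4.3.3), lmFit and eBayes, two-sided, and the fit was tested on simulated data. Pairs of copies were compared with an exact permutation test. Pairs with ProT2 were not run. The number of arrays limits the precision.

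The members, lists, tests and markers were chosen with earlier results of these data known. Named are AtNAOD, all members, each list's called genes or up to 4 of lowest p, and the 3 genes most like P5CS2. Coordinates are not given, since the arrays' annotation names another build than the gene table.

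Deviations from the genotype mean correlated at 0.189, 0.110 and 0.535 for samples of the same number, and at -0.353 to 0.215 for the other combinations. By the rule that all 3 exceed 0.1 the numbers were taken to pair the samples, but only in an alternative fit. The values 0.189 and 0.110 lie below the 0.215 reached by other combinations, so they are weak ground for a pairing. The value 0.535 is that of sample 3, on the second slide in both genotypes, where pairing and slide cannot be told apart. Pairing, slide, background correction (normexp, offset 50), scaling, filters, priors, weights and left-out samples were alternatives.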

Additional observations from a re-analysis of the deposited data

How the results depend on the processing

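Of the 9 proline genes 0 were called with normexp, quantile normalization, the values as deposited, all probes kept however dim, the replicate block, the first slide alone, or without any 1 sample (0 to 0), against 1 in the report. The P5CS2 change in these was 0.42, 0.41, 0.42, 0.40, 0.40, 0.40 and 0.35 to 0.43, while its call was lost. Keeping dim probes and the replicate block cannot move this change, so they say nothing on its size. Of the 16 proline probes 1 was called with median centring, and 2 with a trended and robust prior, array weights or slide as a block. The count over all genes, 1414 in the report, was 243 with normexp, 10 with the deposited values, 22 with no filter, 2259 with the trended and robust prior, 5432 with array weights, 2123 with slide as a block, 27 on the first slide alone, and 14 to 1466 without 1 sample. Of the 47 genes around proline, 4 in the report, 0 were called with normexp, the deposited values, no filter or the first slide alone, 2 with the mean over probes, 7 with the trended and robust prior, 12 with array weights, and 0 to 3 without 1 sample. Of the calls among the proline genes and the 47 genes around them, the replicate block ended those of P5CS2 and bZIP63 and changed no other call of a named gene. Its calls in the marker lists are not given here. Changes near 0 turned sign: OAT (-0.0730 to 0.00423 without 1 sample), ProDH2 (0.00523 with normexp, 0.0064 with the deposited values, -0.147 to 0.0773 without 1 sample), ProT1 (0.0036 on the first slide, -0.144 to 0.115 without 1 sample) and ProT3 (0.0204 with median centring, 0.0843 on the first slide, -0.0608 to 0.0562 without 1 sample). So did ARGAH2 (-0.000921 to 0.187) and GDH2 (-0.0344 to 0.214) without 1 sample, the cytosolic prolyl-tRNA synthetase (0.00309 with array weights), P4H1 (-0.0424 with the mean over probes, -0.0696 with array weights, -0.0657 to 0.102 without 1 sample), and ProT1 minus ProT3 (-0.200 to 0.172 without 1 sample). The cause of these shifts was not tested. Dim second probes of P5CS1 and P5CDH, close to background, limit what they can show.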
